A study of Homo sapiens with 4 samples.

Results

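The transcriptome of MCF10A cells labelled as carrying MYC was set against both control lines of the same series, empty vector and GFP. All genes of the table entered, 18840 in number, and 12484 of them had a mean of at least 1 CPM (reads scaled to the library's effective size, with edgeR's TMM) over the 4 libraries of the series and were compared. Of the 4 libraries, 3 are described here, 1 per construct, and the library labelled miR-105 entered only the scaling and the expression filter. A gene is called higher or lower below only where the library labelled MYC was at least 2-fold above, or at least 2-fold below, each control on its own. MCF10A is an immortalised, non-tumorigenic line of human mammary epithelium with basal features. All the cells stably carried a pBabe retroviral construct (empty vector, pBabe-GFP or pBabe-MYC) and were grown in 1 medium, DMEM/F12 supplemented with hydrocortisone, cholera toxin, EGF, insulin and horse serum. Whether each line was a pool or a clone is not given in the sources used here. With 1 library per construct there is no replicate, no test stands behind any fold, and nothing separates an effect of the construct from a difference between cultures.

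MYC is a transcription factor that binds DNA as a pair with MAX, most often at the E-box, and drives genes of ribosome production, nucleotide and polyamine synthesis, mitochondria and cell cycle entry. With MIZ1 or SP1 it also lowers other genes, among them cell cycle inhibitors, adhesion and matrix genes. MAX also pairs with the MXD proteins, MXI1, MNT and MGA, which oppose MYC, and MLX, MLXIP and MLXIPL form a parallel branch that senses glucose. In mammary epithelium MYC is needed for growth of the gland and is often amplified in breast cancer.

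MYC mRNA stood at 207 CPM in vector, 198 in GFP and 232 in the library labelled MYC. Its level was 1.12-fold (1.05, 1.19) and 1.17-fold (1.11, 1.24) higher (first against vector, then against GFP, with the bounds of the 95% counting interval in parentheses, here and below), a difference smaller than the 2-fold rule, so the directions given here go with a label and not with a measured excess of MYC mRNA. Whether reads from the MYC sequence of the construct were counted in full is not given in the sources used here. Among the 13 of 14 network genes compared, 1 was higher (7.69%) and 0 lower, against 9.59% higher and 11.3% lower over all 12484 genes, so the share higher was near the background. That gene was MLXIPL, the glucose-sensing ChREBP, with 6, 2 and 45 reads in vector, GFP and the library labelled MYC. Values below keep that order unless said otherwise. The obligate partner MAX stood at 91.7, 77.6 and 72.4 CPM and MXD4, the partner with the most reads, at 181 and 182 CPM in the controls against 188. MYCN had 0 reads in each of the 3 libraries, which allows up to 0.324 CPM in vector, 0.217 in GFP and 0.284 in the library labelled MYC (3 reads).

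The labelled cell type was checked against its markers. CDKN2A, the INK4A and ARF tumour suppressor gene, and its neighbours CDKN2B and MTAP had 0 reads in all 3 libraries, while the other genes of that neighbourhood had reads, KLHL9 with 195, 481 and 333 reads, IFNE with 9, 9 and 3 reads and DMRTA1 with 6, 8 and 9 reads. All 15 mammary basal markers were compared, with 3 higher (20.0%, against 9.59% over all genes) and 4 lower (26.7%, against 11.3%), at a median log2 fold of -0.32, and their summed level was 16600 CPM in vector, 16500 in GFP and 11500 in the library labelled MYC. The basal keratin KRT5 stood at 1757, 1614 and 4138 CPM, while its relative KRT17 stood at 6927 CPM in vector, 5132 in GFP and 1777 in the library labelled MYC. KRT5 was thus 2.36-fold (2.31, 2.4) and 2.56-fold (2.52, 2.61) higher and KRT17 3.9-fold (3.84, 3.96) and 2.89-fold (2.84, 2.94) lower. EPCAM, CDH3, CD44, ITGA6 and EGFR differed from each control by less than 2-fold, and KRT14, at 511, 387 and 234 CPM, passed the threshold against vector alone. Marker lists of other cells held some transcripts. Of 10 fibroblast markers 4 were compared, with a summed level of 218 CPM in vector, 212 in GFP and 169 in the library labelled MYC. COL1A2, COL3A1, PDGFRA and THY1 had 0 reads in the library labelled MYC, and COL3A1 in all 3 libraries. Immune markers (3 of 12 compared) summed to 97.4, 99.9 and 30.6 CPM in the same order, with PTPRC, CD3E, LYZ and HBB among those at 0 in the library labelled MYC. CSF1R, the member with the highest level, was the 1 called lower. Endothelial markers (3 of 10 compared) summed to 49.9, 50.9 and 94 CPM. TIE1, EMCN and CLDN5 were at 0 in the library labelled MYC, and EMCN in all 3 libraries. The receptor KDR, at 32.6 and 33 CPM in the controls against 88.9, made up most of the sum in the library labelled MYC, while PECAM1, at 12.8, 15.9 and 2.46 CPM, was lower. Neural and melanocyte markers (4 of 14 compared) summed to 242, 255 and 96.9 CPM. OLIG2 and SOX10 were among those at 0 in that library, and S100B and TYR had 0 reads in all 3. TUBB3, the member with the highest level, was lower, and so were PMEL and the pigment cell factor MITF. MITF stood at 50.4 CPM in vector, 57.1 in GFP and 8.25 in the library labelled MYC. Muscle and fat markers (3 of 10 compared) summed to 34.8, 41.6 and 17.1 CPM. MYOD1, MYOG, ADIPOQ and FABP4 were at 0 in the library labelled MYC, and FABP4 in all 3 libraries. Liver and intestinal markers (2 of 11 compared) summed to 10.7, 25.6 and 1.52 CPM, and APOB, with 63, 329 and 0 reads, made up most of the sum in the controls. Mammary secretory markers (3 of 10 compared) summed to 326, 308 and 64.9 CPM. In that list the casein genes CSN1S1, CSN2 and CSN3 and LALBA, PIP and MUCL1 had 0 reads in all 3 libraries, AZGP1 stood at 325, 306 and 6.26 CPM and LTF had 0, 0 and 597 reads. The part of other cells in the results below was not tested.

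The 3 libraries held 9138429 reads (vector), 14025115 reads (GFP) and 9795159 reads (MYC), and between 12254 and 12296 genes reached 1 CPM in each. Genes with at least 1 read numbered 16531 in vector, 15022 in GFP and 14854 in the library labelled MYC. Of these, 4235, 2768 and 2563 lay below 1 CPM, so vector held the most genes at low level despite the fewest reads. In all, 1197 of the 12484 genes compared were higher (9.59%) and 1411 lower (11.3%) in the library labelled MYC than in both controls. These percentages are the background against which each list is read. The controls themselves lay closer together: GFP was at least 2-fold above vector in 4.13% of genes and at least 2-fold below it in 2.36%. The median absolute log2 fold was 0.53 against vector and 0.54 against GFP, and 0.31 between the controls.

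**Figure D1:**
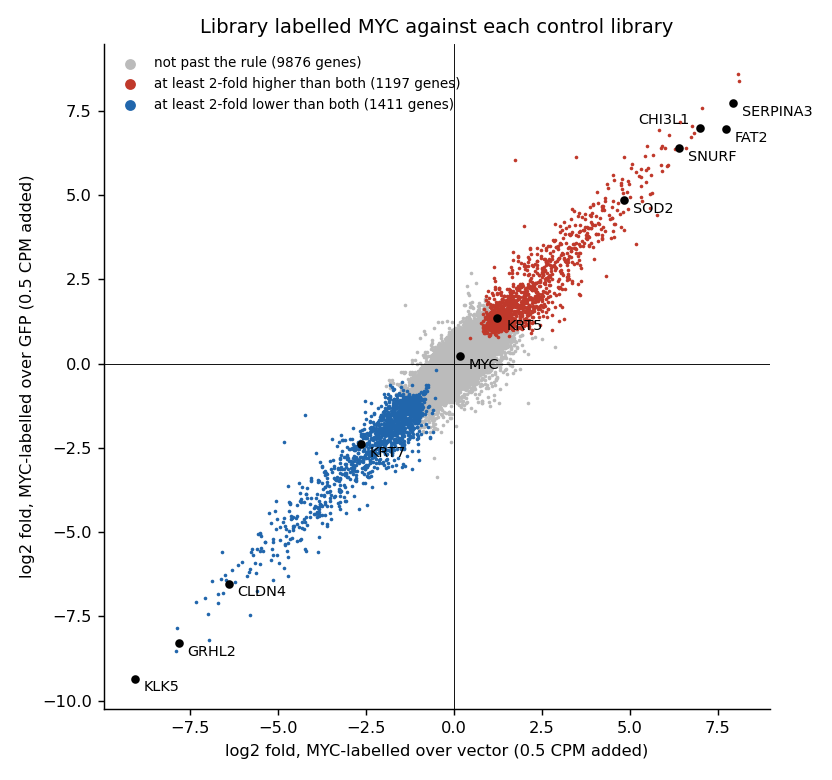
Each point is 1 of 12484 compared genes, placed by the log2 fold of the library labelled MYC over vector (x axis) and over GFP (y axis), 0.5 CPM added. Red points (1197) are at least 2-fold above both controls and blue points (1411) at least 2-fold below both, MYC itself lies near the centre, and SERPINA3 and KLK5 lie near the ends.

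The 15 genes with the largest rise in CPM above the higher control together took 5002 CPM in vector, 5248 in GFP and 32170 in the library labelled MYC. The mitochondrial superoxide dismutase SOD2 led them at 349 and 345 CPM in the controls against 9921. It was followed by the acute-phase inhibitor SERPINA3, glutamine synthetase GLUL, KRT5, the apoptosis inhibitor BIRC3, the laminin chain LAMB1, the serum amyloids SAA1 and SAA2, the fatty acid synthase FASN, the metallothionein MT2A, the cationic amino acid transporter SLC7A2, the zinc importer SLC39A14, vimentin (VIM), the nuclear envelope protein SYNE2 and the growth factor HDGF. GLUL stood at 1524, 1776 and 4221 CPM. SLC7A2 stood at 19 CPM in vector, 16.4 in GFP and 784 in the library labelled MYC, and SLC39A14 at 108, 129.8 and 879 CPM. These rises ran from 543.5 CPM (HDGF) to 9571 CPM (SOD2) above the higher control, on a scale that is not corrected for gene length.

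The 15 genes with the largest fall took 53780 CPM in vector, 53190 in GFP and 10960 in the library labelled MYC. Among them were the keratins KRT7, KRT17 and KRT81, the cytolinker plectin (PLEC), the surface glycoprotein CD24, β-actin (ACTB), fibronectin (FN1), glycogen phosphorylase PYGB, the WNT inhibitor DKK1, pyruvate kinase PKM, aminopeptidase N (ANPEP), the prostaglandin E synthase PTGES and VSTM2L. KRT7 and PLEC were both lower, by 6.28-fold (6.14, 6.42) and 5.21-fold (5.1, 5.33) for KRT7 and by 3.72-fold (3.65, 3.79) and 4.38-fold (4.3, 4.46) for PLEC. CD24, an epithelial surface marker, stood at 3086 and 3652 CPM in the controls against 60.7, and VSTM2L at 1256, 1057 and 13.2 CPM. CD24 was 50.9-fold (47, 55.1) and 60.2-fold (55.7, 65.2) lower and VSTM2L 95.3-fold (80.6, 113) and 80.2-fold (67.9, 95.5) lower, whereas PKM, at 2.28-fold (2.23, 2.34) and 2.09-fold (2.05, 2.14) lower, lay close to the threshold and lost its call with library totals alone and in the deposited values.

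Some genes had next to no reads on 1 side. In 39 genes both controls reached 10 CPM and the library labelled MYC held at most 3 reads, and in 18 of these it held 0. The reverse, 10 CPM in the library labelled MYC with at most 3 reads in each control, was seen for 38 genes, 7 of them at 0 in both controls. Between the controls the same pattern was found for 0 genes in either direction. The first set held GRHL2, involucrin (IVL), the connexin GJA5, the oxidase subunit CYBA, the hyaluronan synthase HAS2, WNT7B and KLK5. The second set held FGFR3, CCND2, the alcohol dehydrogenases ADH1A, ADH1B and ADH1C, fibrillin FBN2, podoplanin (PDPN), SPARC, lactoferrin (LTF), CHI3L1 and the imprinted pair SNURF and SNRPN. GJA5 and CYBA were singled out after their values were seen.

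**Figure D2:**
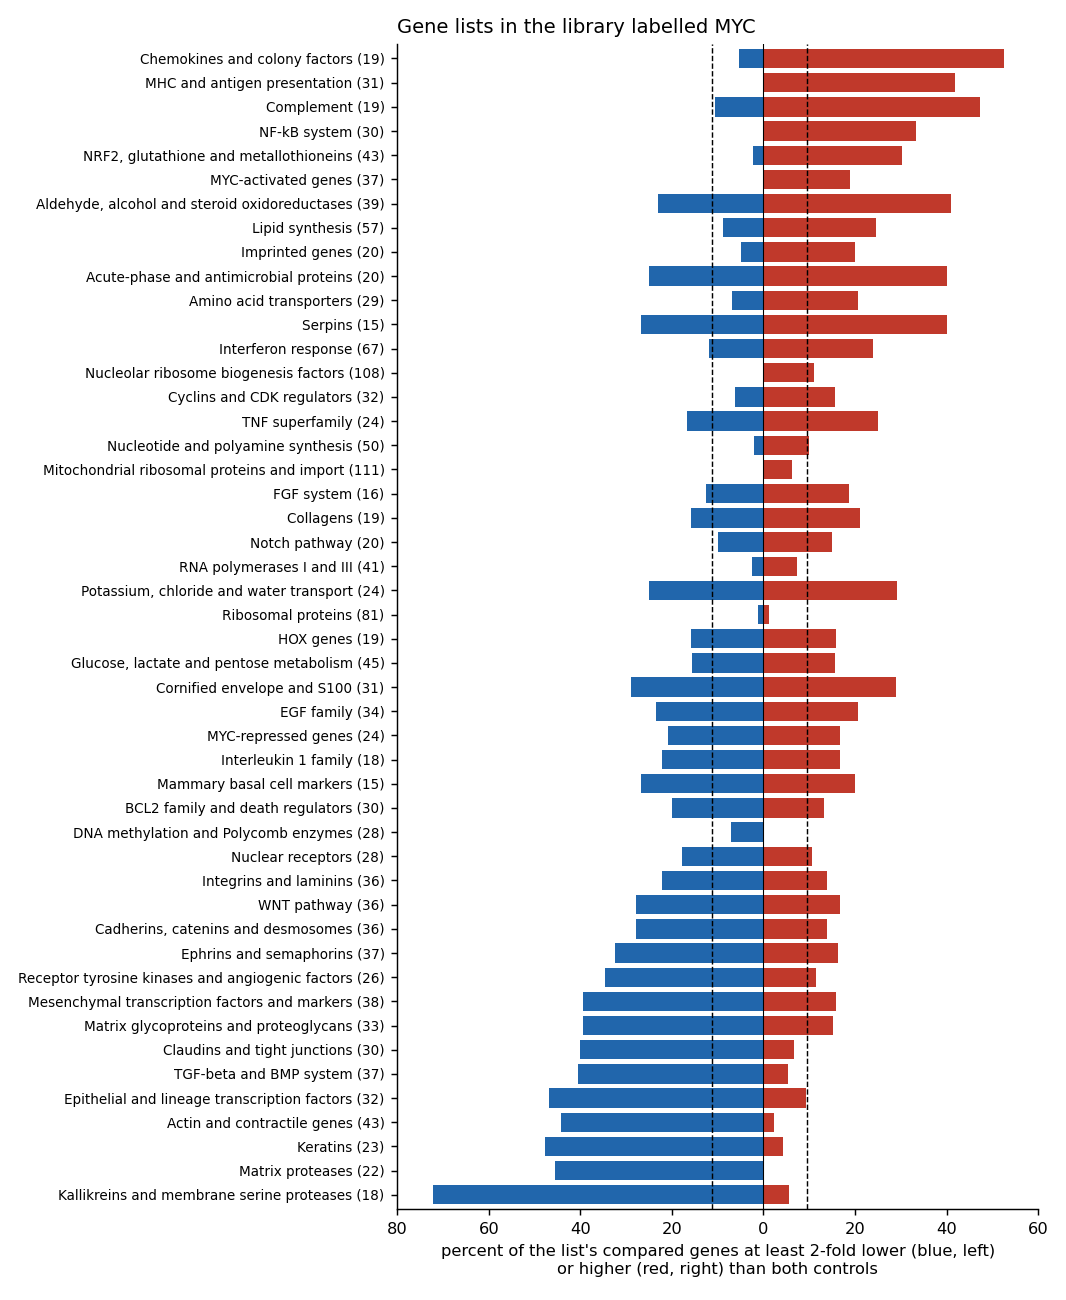
Bars give, for each gene list with at least 15 compared genes (number in brackets), the percent of its compared genes that were lower (blue, to the left) or higher (red, to the right) than both controls, and the dashed lines mark the same percents over all 12484 genes, 11.3% and 9.59%. The lists of chemokines and colony factors, of MHC and antigen presentation and of complement lie at the top. Those of kallikreins and membrane serine proteases, matrix proteases and keratins lie at the bottom.

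Transcription factors of epithelial identity went both ways. TP63, the master regulator of basal epithelium, stood at 7.14 CPM in vector, 14.4 in GFP and 77.2 in the library labelled MYC. TP63 was 10.8-fold (8.41, 14.1) and 5.37-fold (4.59, 6.3) higher. The grainyhead factor GRHL2, which maintains epithelial junction genes, stood at 113, 155 and 0 CPM. With 1047, 2152 and 0 reads, it was at least 398- and 547-fold lower against a floor of 3 reads. GRHL1 stood at 23.6 and 42.9 CPM in the controls against 2.28 and was 10.4-fold (6.78, 16.5) and 18.9-fold (12.6, 29.7) lower, while GRHL3, with 14, 17 and 35 reads, was 2.19-fold (1.15, 4.41) and 2.7-fold (1.47, 5.14) higher, a call lost with 2 CPM added to each value. The 3 grainyhead genes therefore did not move as a group. OVOL2, a repressor of mesenchymal genes, was 11.5-fold (8.89, 15.2) and 8.73-fold (6.74, 11.5) lower. In the epithelial programme 3 of 16 compared factors were higher and 5 lower, against 9.59% and 11.3% over all genes. Among luminal and mammary factors 0 of 16 were higher and 10 lower (median log2 fold -1.60). Within that role ID2, an inhibitor of differentiation, stood at 45.9, 38.8 and 1.14 CPM, SOX9 at 22.2 CPM in vector, 32.7 in GFP and 1.9 in the library labelled MYC and the oestrogen receptor ESR1 at 6.49, 7.87 and 0.474 CPM. ID2 was 40.4-fold (22.9, 78.8) and 34.1-fold (19.4, 66.4) lower and SOX9 11.7-fold (7.37, 19.5) and 17.3-fold (11, 28.5) lower, and ESR1 rested on 60, 109 and 5 reads.

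Of the mesenchymal transcription factors, 1 of 15 was higher and 4 lower. TWIST2 was higher with 15, 8 and 92 reads. The homeobox gene PRRX2 had 381, 487 and 3 reads, and FOXQ1 and SNAI2, the SLUG repressor of E-cadherin, were both lower, by 5-fold (4.24, 5.91) and 6.52-fold (5.58, 7.66) for FOXQ1 and by 3.27-fold (2.95, 3.64) and 2.58-fold (2.33, 2.86) for SNAI2. Structural and secreted mesenchymal markers had 5 of 23 higher and 11 lower. Vimentin (VIM) stood at 66.2 and 9.97 CPM in the controls against 731, so that the controls differed from each other as well. Podoplanin had 1, 0 and 694 reads and SPARC 1, 0 and 290 reads. On the other side, the smooth muscle protein TAGLN stood at 102, 159 and 6.35 CPM.

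Keratins, the intermediate filaments of epithelium, were lower in 11 of 23 compared members and higher in 1, KRT5 (median log2 fold -1.004). The role listed as simple epithelium had 4 of 5 lower. Among its lower members were KRT7, KRT80 and KRT81, and KRT81 is a hair keratin, so the count is not one of simple epithelial keratins alone. KRT7 stood at 5416 CPM in vector, 4496 in GFP and 862 in the library labelled MYC and KRT80 at 80.6, 163 and 2.56 CPM. KRT80 was 31.5-fold (21.5, 48.1) and 63.7-fold (43.7, 96.9) lower. The hair keratins KRT81, KRT86 and KRT83 are close copies that may share reads, and KRT81 stood at 5222 and 3749 CPM in the controls against 411. KRT86 and KRT83 were both lower, by 11.4-fold (10.7, 12.1) and 8.7-fold (8.16, 9.27) for KRT86 and by 10.9-fold (10.1, 11.8) and 7.3-fold (6.75, 7.9) for KRT83. KRT6A, which had the most reads of the suprabasal and injury keratins, stood at 2304, 2399 and 1294 CPM and missed the threshold.

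Claudins, which seal the tight junction, were lower in 8 of 10 compared members and higher in 0 (median log2 fold -1.97). CLDN1, with the most reads of them, stood at 342 CPM in vector, 472 in GFP and 139 in the library labelled MYC. CLDN4 stood at 276, 299 and 2.75 CPM, and CLDN8 had 62, 70 and 0 reads. Occludin-family genes and junction scaffolds had 2 of 20 higher (10.0%) and 4 lower (20.0%), against 9.59% and 11.3% over all genes. The scaffolds TJP1 and TJP3 are relatives that went opposite ways: TJP1 (ZO-1) stood at 264 and 388 CPM in the controls against 99.3 and TJP3 (ZO-3) at 25.8, 30.7 and 69.5 CPM.

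Classical cadherins went both ways. E-cadherin (CDH1) stood at 549 CPM in vector, 768 in GFP and 183 in the library labelled MYC, N-cadherin (CDH2) at 1.19, 1.3 and 10.7 CPM and T-cadherin (CDH13) at 3.14 and 2.02 CPM in the controls against 97.8. CDH1 was 3-fold (2.85, 3.16) and 4.2-fold (4, 4.41) lower, and CDH13 31.2-fold (21.6, 46.8) and 48.4-fold (33.3, 73.2) higher. Among desmosome genes 2 of 12 were higher and 2 lower (16.7% each, against 9.59% and 11.3% over all genes). DSC3, a cadherin of the desmosome, stood at 57.5, 90.3 and 245 CPM, higher in the library labelled MYC. The plaque proteins PPL and EVPL were both lower, by 2.27-fold (2.18, 2.36) and 2.54-fold (2.46, 2.64) for PPL and by 2.23-fold (2.04, 2.44) and 2.29-fold (2.1, 2.49) for EVPL, and desmoplakin (DSP), the member with the most reads, stood at 999.8 CPM in vector, 1700.4 in GFP and 1739 in the library labelled MYC. Other adhesion genes had 1 of 13 higher and 7 lower. The giant protocadherin FAT2, found in basal epidermis, stood at 0.432, 1.08 and 196 CPM. L1CAM was 13.6-fold (11.2, 16.6) and 15.8-fold (13.1, 19.3) lower and MCAM 5.65-fold (4.69, 6.85) and 5.81-fold (4.84, 7) lower.

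Integrins and laminins connect basal cells to the basement membrane. Integrin α chains had 3 of 10 higher and 1 lower, and β chains 0 of 7 higher and 4 lower. ITGA3, a laminin receptor chain, stood at 485 and 568 CPM in the controls against 168, and ITGA10, a collagen receptor chain, at 2.49, 1.88 and 35.6 CPM. ITGB6, which activates TGF-β, stood at 164 CPM in vector, 501 in GFP and 42.2 in the library labelled MYC and so differed between the controls as well, and the leukocyte chain ITGB2 was 26.4-fold (19.4, 36.8) and 31.6-fold (23.3, 44) lower. ITGB4, the hemidesmosome chain and the member with the most reads, stood at 1938, 1934 and 1159.6 CPM, within the threshold. Of laminin and basement membrane genes 2 of 19 were higher (10.5%) and 3 lower (15.8%), near the 9.59% and 11.3% over all genes. LAMB1 stood at 263 and 340.3 CPM in the controls against 1713, and LAMB3, a chain of the hemidesmosomal laminin, at 1770.5, 1794 and 1080.4 CPM.

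The matrix that these cells would secrete also differed gene by gene. Collagens had 4 of 19 higher and 3 lower (median log2 fold -0.01), close to the 0.036 of all genes. COL16A1 stood at 2.38 CPM in vector, 1.59 in GFP and 115 in the library labelled MYC, and the collagen-folding enzyme FKBP10 had 10, 6 and 1416 reads. Fibrillin FBN2 had 2, 0 and 996 reads. Fibronectin stood at 2405, 7563 and 42.5 CPM, and thrombospondin THBS1 at 948 and 1422 CPM in the controls against 64.8. FN1 was 56.6-fold (51.6, 62.3) and 178-fold (162, 196) lower, and the controls lay apart from each other as well. Matrix glycoproteins had 3 of 20 higher and 8 lower, and proteoglycan genes 2 of 13 and 5. IGFBP3, which binds insulin-like growth factors, was 34.4-fold (21.6, 58.5) and 61.1-fold (38.5, 103) lower, GPC6 41.2-fold (23.9, 77.9) and 29.7-fold (20.2, 45.4) higher, and HAS2 had 286, 580 and 2 reads. Matrix proteases and their inhibitors had 0 of 22 higher and 10 lower. MMP7 and MMP2 were both lower, by 3.65-fold (2.85, 4.72) and 6.17-fold (4.91, 7.83) for MMP7 and by 3.8-fold (2.21, 6.84) and 10.1-fold (6.26, 17.4) for MMP2, ADAM9 stood at 340.1, 476 and 141 CPM, TIMP2 at 723 CPM in vector, 889 in GFP and 128 in the library labelled MYC, and MMP14, the metalloproteinase with the most reads, stood at 179.9, 226 and 192 CPM.

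Genes of the skin-like barrier held some of the largest falls. All 5 compared kallikreins, serine proteases that shed surface proteins in stratified epithelium, were lower (median log2 fold -4.14). The other 10 kallikreins in the table missed the expression filter. KLK5 had 3446, 6187 and 2 reads, so it was 1965-fold (543, 16230.0) and 2357-fold (652, 19467) lower, with intervals set by the few reads in the library labelled MYC. KLK7 was 27.8-fold (16.9, 49.1) and 37.7-fold (23.1, 66.2) lower, and KLK6 had 69, 128 and 0 reads. The role of membrane serine proteases and their inhibitors had 1 of 13 higher and 8 lower. This role also holds tissue factor, which is not a protease, and PLAT, which is secreted. Tissue factor (F3), the trigger of coagulation, was 15-fold (12.4, 18.2) and 24-fold (20.01, 28.9) lower, and the plasminogen activator PLAT 10.5-fold (5.98, 20.2) and 9.75-fold (6.16, 16.2) higher. In the cornified envelope list 4 of 18 were higher and 8 lower. The protease inhibitor A2ML1 had 1515, 3514 and 2 reads and sciellin (SCEL) 1134, 2304 and 5 reads, while CALML3, SPRR1A and SPRR1B were higher, from 2, 0 and 69 reads, 3, 5 and 24 reads and 6, 11 and 75 reads. The SPRR1A call was lost with 2 CPM added. S100 proteins had 5 of 13 higher and 1 lower. The calprotectin genes S100A8 and S100A9 were both higher, by 17.1-fold (10.2, 30.9) and 34.8-fold (19.2, 70.6) for S100A8 and by 5.9-fold (4.85, 7.23) and 6.89-fold (5.78, 8.26) for S100A9, whereas S100P was 33.2-fold (29, 38.2) and 24.8-fold (21.6, 28.5) lower.

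**Figure D3:**
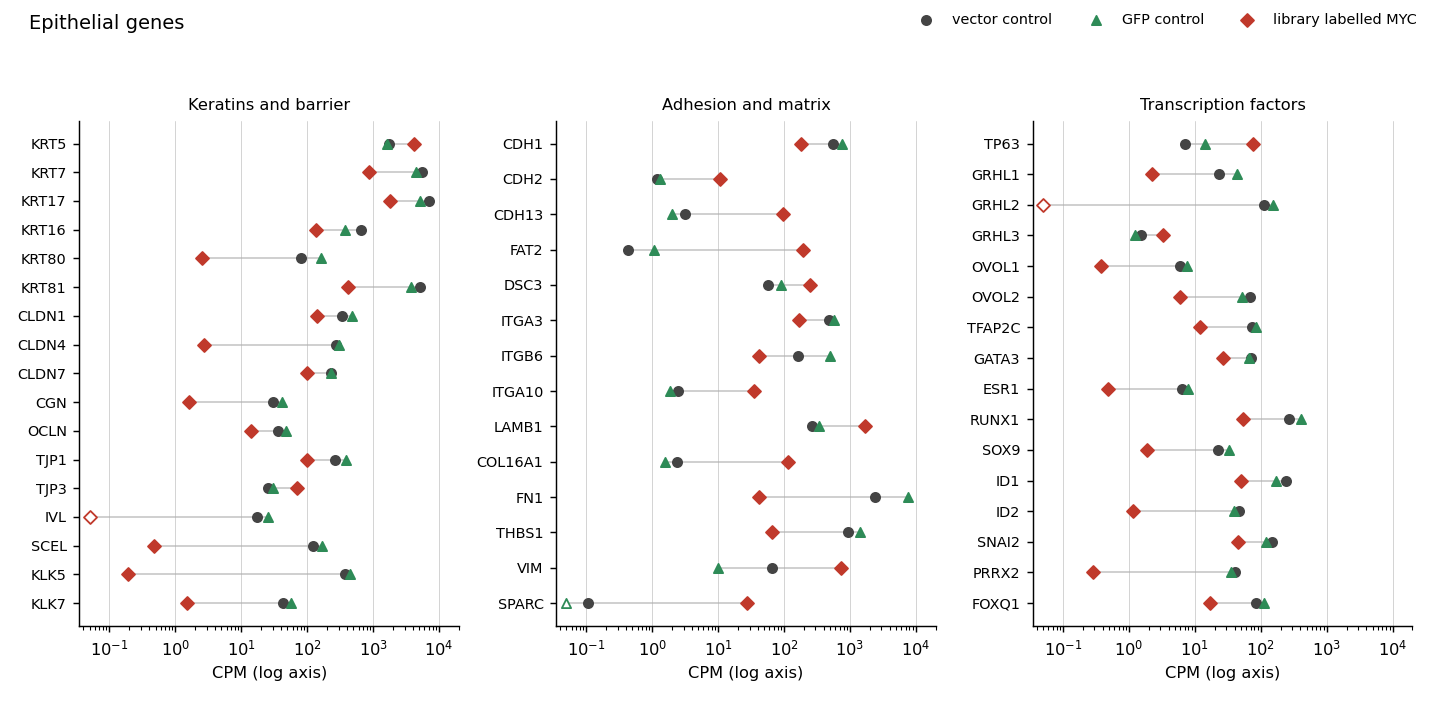
CPM on a log axis in the vector library (circles), the GFP library (triangles) and the library labelled MYC (diamonds), for epithelial genes in 3 panels. Open symbols at the left edge mark 0 reads, as for GRHL2 and IVL. KRT5, TP63, FAT2 and LAMB1 are among the genes to the right of both controls, and most of the genes drawn lie to the left. Some were chosen for drawing after their values were seen, so this balance describes the drawing and not the lists.

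Actin and contractile genes formed 1 of the more one-sided groups, with 1 of 43 higher and 19 lower (median log2 fold -0.97). ACTB stood at 3426 and 3182 CPM in the controls against 737, which was 4.65-fold (4.54, 4.77) and 4.32-fold (4.22, 4.42) lower. The myosin light chain MYL9 was 24.3-fold (16.3, 37.9) and 20.6-fold (13.8, 32.1) lower, thymosin β4 (TMSB4X) 6.89-fold (6.25, 7.61) and 7.11-fold (6.46, 7.83) lower and TAGLN 16.1-fold (12.6, 20.9) and 25-fold (19.6, 32.3) lower. FHL1 alone was higher, by 10.4-fold (6.99, 16) and 18.2-fold (11.9, 29.1).

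The NF-κB system was higher in 10 of 30 compared genes and lower in 0 (median log2 fold 0.31), against 9.59% and 11.3% over all genes. NF-κB dimers move to the nucleus when their inhibitors are degraded and switch on cytokines, survival genes and their own inhibitors. Of the 5 subunit genes, RELB stood at 33.1, 23.8 and 86.6 CPM and NFKB1 at 46.8 CPM in vector, 50.9 in GFP and 127 in the library labelled MYC, both higher, while NFKB2 stood at 279, 225 and 163 CPM. The feedback genes had 7 of 19 higher. BIRC3 (cIAP2) stood at 131 and 140.4 CPM in the controls against 1568, and TNFAIP3 (A20), the deubiquitinase that ends the signal, at 21.1, 24.1 and 236 CPM. TNFAIP3 was 11.2-fold (9.67, 13) and 9.81-fold (8.74, 11) higher and BIRC3 12-fold (11.3, 12.7) and 11.2-fold (10.7, 11.7) higher. TNIP3, an A20 partner, had 0, 0 and 68 reads. Among kinases IKBKE was 8.76-fold (6.87, 11.3) and 7.15-fold (5.93, 8.67) higher, and IKBKB, at 103 CPM in vector, 128 in GFP and 133 in the library labelled MYC, was not.

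Promoters were searched for 3 motifs, each on both strands, in a window from 250 bases before to 50 bases after the start (RefSeq, GRCh38.p14). The 10-letter NF-κB motif (the capitals of CXCL1 below, with any base at the fifth) was in 20 of the 936 higher genes with a promoter in the table (2.14%), in 1 of 1061 lower genes (0.0943%), in 0.583% of compared genes and in 0.579% of all 27305 promoters. The E-box CACGTG was in 8.76% of higher, 7.73% of lower, 10.1% of compared and 7.43% of all promoters. The grainyhead motif AACCGGTT was in 0 of 936 higher and 1 of 1061 lower genes, against 0.128% of compared and 0.117% of all promoters. Those letters are a description and not a measured site. The promoters of TNFAIP3 (chr6:137867009-137867308, plus strand) and of the chemokine gene CXCL1 (chr4:73869143-73869442, plus strand) show the NF-κB motif in capitals, on the minus and on the plus strand, and TNFAIP3 also holds an E-box that starts at base 173 of the printed window. That of ALDH3B1 (chr11:68008297-68008596, plus strand), an aldehyde dehydrogenase lower in the library labelled MYC, shows an E-box in capitals.
TNFAIP3: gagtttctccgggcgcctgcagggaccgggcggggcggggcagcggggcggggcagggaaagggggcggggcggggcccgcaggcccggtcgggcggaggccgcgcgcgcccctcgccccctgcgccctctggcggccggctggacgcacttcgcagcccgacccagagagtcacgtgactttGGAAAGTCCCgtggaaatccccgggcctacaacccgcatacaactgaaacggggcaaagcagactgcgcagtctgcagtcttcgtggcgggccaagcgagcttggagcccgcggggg
CXCL1: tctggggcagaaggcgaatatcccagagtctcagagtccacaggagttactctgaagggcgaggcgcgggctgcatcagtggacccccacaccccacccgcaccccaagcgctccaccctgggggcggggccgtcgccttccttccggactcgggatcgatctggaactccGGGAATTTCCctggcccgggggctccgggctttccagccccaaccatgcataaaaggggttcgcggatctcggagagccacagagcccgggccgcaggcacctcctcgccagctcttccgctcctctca
ALDH3B1: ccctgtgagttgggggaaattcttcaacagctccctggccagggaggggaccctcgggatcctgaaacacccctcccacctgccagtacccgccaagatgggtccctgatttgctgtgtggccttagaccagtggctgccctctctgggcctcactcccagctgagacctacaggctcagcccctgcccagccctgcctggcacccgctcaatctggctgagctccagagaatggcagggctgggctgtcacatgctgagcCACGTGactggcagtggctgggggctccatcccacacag

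The list of chemokines, colony-stimulating factors and the IL6 family with receptors was higher in 10 of 19 compared genes and lower in 1. By role, 3 of 5 CXC chemokines and 1 of 2 CC chemokines were higher. Another 8 CXC and 8 CC chemokines in the table missed the expression filter. Colony factors and the IL6 family had 6 of 12 higher and 1 lower. The neutrophil-attracting CXCL1, whose promoter is printed above, stood at 4.32, 2.17 and 98.8 CPM. Its neighbours CXCL2 and CXCL3 had 9, 8 and 476 reads and 6, 4 and 75 reads. All 3 were low in both controls. CSF1, the macrophage growth factor, stood at 2.16 and 1.52 CPM in the controls against 170.1, IL32 at 3.46, 4.91 and 41.3 CPM and the LIF receptor LIFR at 11.4 CPM in vector, 19.5 in GFP and 113 in the library labelled MYC. The cytokine CLCF1, of the IL6 family, was the exception at 8.42-fold (5.77, 12.7) and 9.93-fold (6.89, 14.8) lower, and OSMR, which had the most reads of its role, stood at 95.4, 172 and 253 CPM. In the interleukin 1 family 3 of 18 were higher and 4 lower. IL1A was 10.2-fold (6.11, 18.2) and 24.4-fold (13, 51.8) higher, whereas its natural antagonist IL1RN was 12.7-fold (6.41, 28.5) and 10.2-fold (5.22, 22.9) lower and IL18 3.31-fold (3.13, 3.51) and 2.37-fold (2.25, 2.51) lower. The inflammasome adaptor PYCARD had 32, 33 and 0 reads. TNF ligands had 4 of 9 higher and 0 lower, CD70 among them at 5.9-fold (4.7, 7.49) and 7.38-fold (5.97, 9.19) higher. TNF receptors had 2 of 15 higher and 4 lower, with the TWEAK receptor TNFRSF12A at 119.8 and 109.6 CPM in the controls against 12.1.

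Secreted acute-phase proteins were higher in 7 of 10 compared genes and lower in 1 (median log2 fold 4.22). Another 10 missed the expression filter. Members near 0 in both controls could pass it only through a high level in another library, so this share and median are not an unbiased count. SERPINA3 stood at 9.62, 11.1 and 2458 CPM, and its relative α1-antitrypsin (SERPINA1) had 1, 1 and 497 reads. The chitinase-like protein CHI3L1 had 0, 0 and 666 reads, at least 195- and 291-fold higher. SAA1 stood at 76.4 CPM in vector, 59.8 in GFP and 1266 in the library labelled MYC and SAA2 at 54.3, 48.1 and 963 CPM. These are near-identical neighbours, so their shares of the reads are uncertain. HPX, the haem carrier, went the other way at 5.7-fold (2.63, 14.1) and 5.43-fold (2.58, 13.2) lower. Antimicrobial and mucosal proteins had 1 of 10 higher and 4 lower. Lactoferrin (LTF) had 0, 0 and 597 reads, while lipocalin LCN2 stood at 614 and 629 CPM in the controls against 13 and the mucin MUC16 at 164, 486 and 5.69 CPM. The iron-binding LTF and LCN2 thus went opposite ways.

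Complement components were higher in 5 of 11 compared genes and lower in 1, and complement regulators in 4 of 8 and 1. The first proteases of the classical pathway, C1R and C1S, stood at 5.73 CPM in vector, 2.67 in GFP and 279 in the library labelled MYC and at 1.51, 0.433 and 114 CPM. Factor B (CFB), of the alternative pathway, stood at 29.1 and 27.1 CPM in the controls against 478. C1R was 48.7-fold (37.1, 65.2) and 104-fold (75.6, 149) higher, and C1S 75.5-fold (44.8, 138) and 264-fold (121, 719.7) higher. SERPING1, the inhibitor of C1R and C1S, had 131, 121 and 4 reads and was 37.3-fold (14.2, 139) and 23-fold (8.77, 86) lower. C2 was 4.15-fold (2.26, 8.13) and 3.97-fold (2.22, 7.62) lower, and C3, the component with the most reads, stood at 2826, 3738 and 3479 CPM.

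Clade A serpins were higher in 3 of 3 compared genes, while another 4 missed the expression filter. SERPINA5 stood at 6.7 CPM in vector, 7.51 in GFP and 66.7 in the library labelled MYC. Clade B serpins, mostly intracellular, had 0 of 6 higher and 2 lower, and SERPINB5 (maspin), the member with the most reads, stood at 254, 331 and 265 CPM.

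Genes of MHC and antigen presentation were higher in 13 of 31 compared members and lower in 0 (median log2 fold 0.76). In the class I pathway 10 of 25 were higher. The class I heavy chain HLA-B stood at 50.9 and 55.7 CPM in the controls against 279, the immunoproteasome subunit PSMB9 at 0.432, 0.795 and 16.7 CPM and the class I transactivator NLRC5 at 1.51 CPM in vector, 1.16 in GFP and 46 in the library labelled MYC. HLA genes are polymorphic and alike, so reads may be divided between them. In the class II pathway 3 of 6 compared genes were higher, and another 10 missed the expression filter. The 3 were CIITA, IFI30 and LGMN, with no HLA chain among them. The class II transactivator CIITA had 4, 0 and 45 reads, and the lysosomal reductase IFI30 stood at 11.8, 6.57 and 75.2 CPM.

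Interferon response genes had 16 of 67 higher (23.9%) and 8 lower (11.9%), against 9.59% and 11.3% over all genes. The share lower was thus near the background. Regulators had 4 of 22 higher and 0 lower, IRF1 among them at 2.45-fold (2.15, 2.78) and 2.35-fold (2.11, 2.63) higher, while STAT3, the member with the most reads, stood at 188 and 238 CPM in the controls against 361, within the threshold. Sensors had 2 of 13 higher and 3 lower. IFI16, a sensor of DNA, stood at 48.3, 45.5 and 275 CPM and STING (TMEM173) was 3.23-fold (2.64, 3.98) and 6.27-fold (5.01, 7.92) higher. All 3 lower sensors were Toll-like receptors of microbial products: TLR2 stood at 87 CPM in vector, 82.1 in GFP and 1.61 in the library labelled MYC, TLR4 at 14.1, 29 and 1.23 CPM and TLR5 at 7.24 and 8.23 CPM in the controls against 2.84. The TLR5 call was lost with 2 CPM added. Effectors had 10 of 32 higher and 5 lower. Tetherin (BST2) had 0, 1 and 502 reads, and OAS3, which makes the activator of RNase L, stood at 2.59, 4.62 and 67.5 CPM. EPSTI1 had 473, 634 and 3 reads and IFI27 was 4.81-fold (2.29, 11.3) and 7.53-fold (3.8, 17) lower, both among the lower effectors.

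**Figure D4:**
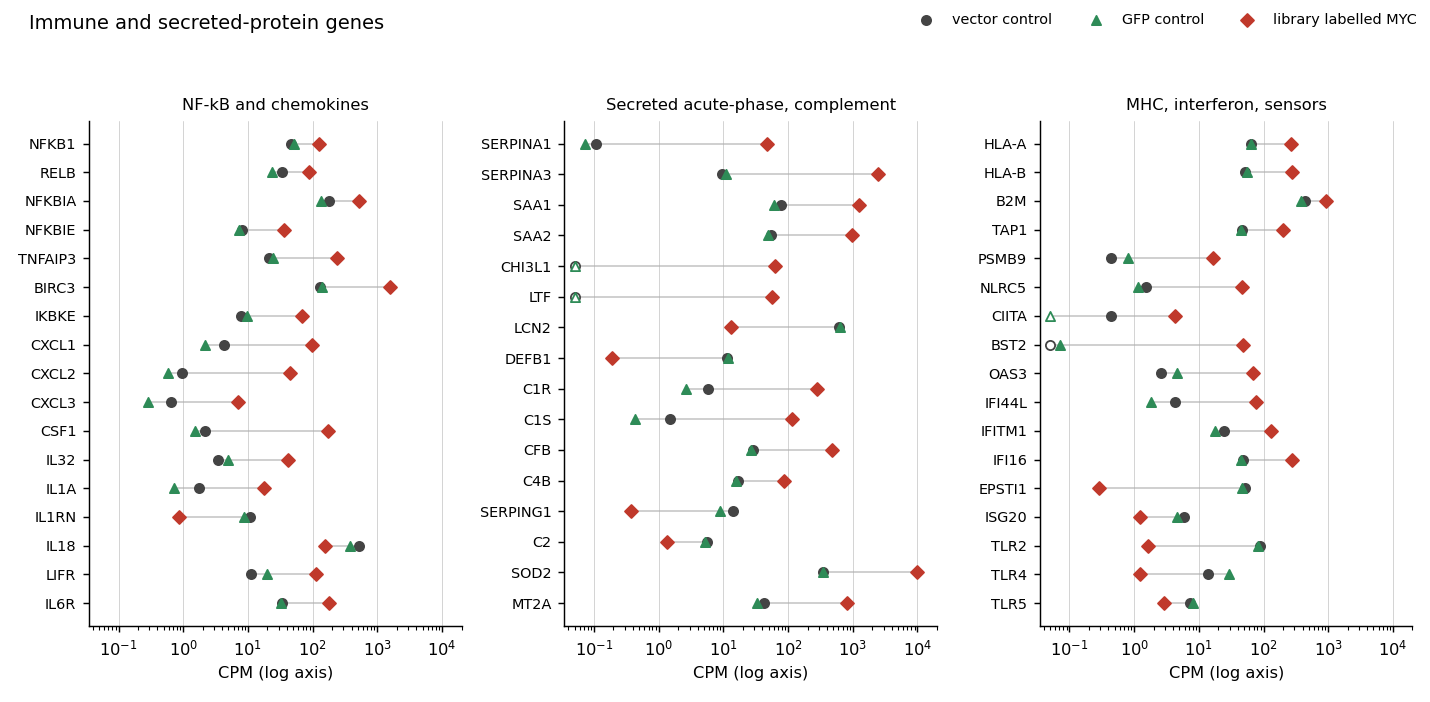
CPM on a log axis in the vector library (circles), the GFP library (triangles) and the library labelled MYC (diamonds), for immune and secreted-protein genes in 3 panels. Open symbols at the left edge mark 0 reads, as for CHI3L1 and LTF in both controls. Most of the genes drawn lie to the right of both controls, while LCN2, SERPING1, EPSTI1 and the Toll-like receptors are among those to the left. Some were chosen for drawing after their values were seen, so this balance describes the drawing and not the lists.

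Of the growth factor systems, the TGF-β and BMP list was the more one-sided, with 2 of 37 compared genes higher and 15 lower. Others were mixed: the WNT list had 6 of 36 higher and 10 lower and the FGF list 3 of 16 and 2. The EGF family had 7 of 34 higher and 8 lower and the Notch list 3 of 20 and 2. TGF-β and BMP ligands had 0 of 11 higher and 7 lower (median log2 fold -1.41), and their extracellular and membrane antagonists 0 of 6 and 5. TGFB2 stood at 48.9 CPM in vector, 116 in GFP and 1.23 in the library labelled MYC, the activin chain INHBA at 37.2, 91.5 and 0.569 CPM and INHBB at 23.8 and 25.9 CPM in the controls against 0.379. TGFB1, the ligand with the most reads, stood at 57.1, 54.8 and 69.5 CPM. Of receptors and SMADs 2 of 20 were higher and 3 lower. The receptor TGFBR2 stood at 725 CPM in vector, 1209 in GFP and 157 in the library labelled MYC, the inhibitory SMAD6 was 7.11-fold (3.93, 13.9) and 8.73-fold (4.95, 16.8) lower, and the BMP transducers SMAD1 and SMAD9 were both higher, by 2-fold (1.71, 2.35) and 2.13-fold (1.85, 2.46) for SMAD1 and by 2.82-fold (2.02, 4) and 3.74-fold (2.72, 5.21) for SMAD9. The SMAD1 call was lost with DESeq2 size factors and with 2 or 0.1 CPM added. The antagonists BAMBI and NOG were both lower, by 4.3-fold (2.94, 6.43) and 4.33-fold (3.01, 6.4) for BAMBI and by 4.28-fold (2.22, 8.88) and 6.29-fold (3.44, 12.6) for NOG.

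WNT ligands had 3 of 10 higher and 4 lower. WNT7B had 682, 1205 and 3 reads and WNT5A stood at 191, 242 and 6.45 CPM, while WNT4, which branches the mammary gland under progesterone, stood at 1.08 and 0.433 CPM in the controls against 23.8. The receptors FZD4 and ROR1 went opposite ways, FZD4 7.29-fold (4.84, 11.4) and 4.23-fold (3.2, 5.65) higher and ROR1 17.5-fold (11, 29.4) and 28.4-fold (18.1, 47.5) lower. Among inhibitors and targets, SFRP1 stood at 61.4, 115 and 322 CPM and DKK1 at 1729 CPM in vector, 1356 in GFP and 137 in the library labelled MYC, so the secreted inhibitors also went both ways. FGF receptors and partners had 2 of 12 higher and 2 lower (16.7% each, against 9.59% and 11.3% over all genes). FGFR3 had 2, 0 and 2019 reads, and FGFRL1, the receptor without a kinase domain, was 2.02-fold (1.75, 2.33) and 2.9-fold (2.55, 3.3) lower, a call lost with library totals alone, in the deposited values and with 2 CPM added.

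EGF family ligands had 2 of 9 higher and 3 lower. TGFA was 2.4-fold (2.03, 2.86) and 3.49-fold (2.99, 4.08) lower and HBEGF 2.6-fold (1.65, 4.22) and 2.2-fold (1.51, 3.24) higher, the latter call being lost with 2 CPM added. Receptors and feedback genes had 5 of 25 higher and 5 lower: ERBB2 stood at 313, 313 and 91.2 CPM, and of the immediate early genes JUN stood at 123 and 142 CPM in the controls against 26.5 and FOS at 53.2, 41.5 and 149.9 CPM. Notch ligands DLL1 and JAG1 were both higher, by 36-fold (13.8, 134) and 19.6-fold (10.7, 39.97) for DLL1 and by 5.68-fold (4.45, 7.33) and 3.33-fold (2.81, 3.95) for JAG1, 2 of 8 receptors and ligands, with 0 lower. The stem cell factor KITLG was 4.68-fold (3.84, 5.76) and 4.77-fold (4.02, 5.68) higher. The ligands GAS6, NTF3, PDGFB and EDN1 were lower, NTF3 with 206, 219 and 0 reads. Eph receptors had 0 of 7 higher and 3 lower, and semaphorins, plexins and neuropilins 4 of 23 and 7. EPHA2 was 3.98-fold (3.63, 4.37) and 4.71-fold (4.32, 5.15) lower and SEMA6A 20.2-fold (10.8, 42.6) and 25.2-fold (14.1, 49.4) higher.

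Genes that MYC is known to activate were higher in 7 of 37 compared members (18.9%) and lower in 0 (median log2 fold 0.62) against 0.036 over all genes. Cyclin D2 (CCND2) had 3, 0 and 369 reads, and ornithine decarboxylase ODC1, the first step of polyamine synthesis, stood at 29.7 CPM in vector, 27.3 in GFP and 136 in the library labelled MYC. POLR3G, a subunit of RNA polymerase III, was 2.78-fold (1.83, 4.34) and 4.99-fold (3.18, 8.09) higher, and the amino acid transporter SLC7A5 stood at 1229.5, 1446 and 1270.3 CPM. Genes that MYC is known to lower had 5 of 24 lower and 4 higher (median log2 fold -0.65). CDKN1A (p21) stood at 503 and 516 CPM in the controls against 115, GADD45B was 6.38-fold (5.66, 7.21) and 4.51-fold (4, 5.09) lower, and CDKN1C (p57) stood at 13.9, 5.49 and 63.7 CPM. Of the other D cyclins, CCND1 stood at 124 CPM in vector, 155 in GFP and 34.4 in the library labelled MYC, and CCND3 at 138, 123 and 145 CPM. The phosphatase CDC25B was 6.17-fold (5.47, 6.98) and 10.6-fold (9.29, 12) higher.

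Ribosome and growth lists differed little per gene. Nucleolar ribosome biogenesis factors had 12 of 108 higher (11.1%) and 0 lower (median log2 fold 0.50). Mitochondrial ribosomal proteins and import factors had 7 of 111 higher (6.31%) and 0 lower (median log2 fold 0.45). The shares higher lay near or under the background of 9.59%, while the medians lay above that of all genes. HEATR1, of the small subunit processome, stood at 97.5 and 144 CPM in the controls against 317, URB2 at 11, 18.9 and 44.9 CPM and WDR3 at 32.9 CPM in vector, 39.8 in GFP and 97 in the library labelled MYC. C1QBP, a mitochondrial matrix protein, was 2.82-fold (2.59, 3.06) and 3.54-fold (3.28, 3.83) higher, and the import channel subunit TIMM17A 2.69-fold (2.4, 3.02) and 3.54-fold (3.17, 3.95) higher. Cytosolic ribosomal proteins had 1 of 81 higher and 1 lower, RPL21 and RPS26, both with many processed copies in the genome. HEATR1, URB2, TIMM17A and TFB2M lie in the part of chromosome 1 described below.

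Nucleotide and polyamine enzymes had 5 of 50 higher (10.0%) and 1 lower (2.0%), against 9.59% and 11.3% over all genes, so the share higher was near the background. Amino acid transporters had 6 of 29 higher and 2 lower. SLC7A2 was 41.2-fold (35.5, 48.1) and 47.8-fold (41.9, 54.8) higher, and the neutral amino acid carrier SLC6A15 stood at 31.8, 36.9 and 192 CPM. Of glycolytic genes 4 of 23 were higher and 3 lower. Hexokinase HK2 stood at 7.46 and 8.45 CPM in the controls against 71.2, and PFKM was 2.21-fold (2.02, 2.42) and 2.64-fold (2.43, 2.87) higher, whereas PKM, the last step, was lower. The lactate exporter SLC16A3 stood at 460.1, 419 and 159 CPM. Fatty acid genes had 9 of 30 higher and 5 lower, and cholesterol genes 5 of 27 higher and 0 lower. FASN stood at 199 CPM in vector, 232 in GFP and 1006 in the library labelled MYC and the desaturase SCD at 59, 77 and 305 CPM. Lipoprotein lipase LPL and PPARG were both lower, by 8.89-fold (3.5, 28.9) and 16.3-fold (6.77, 51.2) for LPL and by 3.5-fold (2.45, 5.11) and 2.62-fold (1.84, 3.81) for PPARG.

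Oxidoreductases of aldehydes, alcohols and steroids were among the most divided groups, with 16 of 39 higher (41.0%) and 9 lower (23.1%). ALDH1A3, which makes retinoic acid, stood at 737 and 1109 CPM in the controls against 14.5, and ALDH3A1, which clears lipid aldehydes, at 6.38, 3.97 and 135 CPM. ALDH3B1, whose promoter is printed above, stood at 504 CPM in vector, 402 in GFP and 76.3 in the library labelled MYC. The class I alcohol dehydrogenases ADH1A, ADH1B and ADH1C, near copies of each other that may share reads, had 1, 0 and 277 reads, 1, 0 and 1770 reads and 0, 0 and 305 reads. The aldo-keto reductase AKR1C1 was 13.3-fold (11.4, 15.5) and 12.3-fold (10.9, 13.9) higher and AKR1C3 8.94-fold (7.75, 10.4) and 8.91-fold (7.91, 10.1) higher, while CYP26B1, which degrades retinoic acid, was 3.76-fold (3.18, 4.46) and 8.58-fold (7.37, 10.03) lower. Metallothioneins, which bind zinc and copper, were higher in 8 of 10 and lower in 0. MT2A stood at 42.2, 32.9 and 810.2 CPM, MT1X at 8.32 and 5.27 CPM in the controls against 236 and MT1G at 2.92, 2.17 and 62.8 CPM. SLC39A14, which brings in zinc, was higher with them.

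Cell death genes had 4 of 30 higher (13.3%) and 6 lower (20.0%), against 9.59% and 11.3% over all genes. The BH3 protein BMF, linked to loss of attachment, stood at 401 CPM in vector, 470.3 in GFP and 54.5 in the library labelled MYC. The survival gene BCL2L1 was 2.48-fold (2.29, 2.69) and 2.24-fold (2.08, 2.42) lower. Among transporters of ions and water SLC12A7 had 0, 0 and 556 reads, the calcium-activated chloride channel regulator CLCA2 12, 38 and 533 reads, and the aquaporin AQP3 stood at 20.4, 16.4 and 122 CPM. Of HOX genes 3 of 19 were higher and 3 lower (15.8% each, against 9.59% and 11.3% over all genes). HOXA9 was 6.6-fold (4.65, 9.63) and 4.68-fold (3.62, 6.12) higher and HOXA7, at 71, 109 and 3 reads, lower on the same cluster. Of 20 imprinted genes 4 were higher and 1 lower. SNURF and SNRPN, which share a transcript, had 0, 0 and 437 reads and 2, 0 and 437 reads, and IGF2 had 153, 34 and 1 reads.

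The order of genes along chromosomes showed stretches that went 1 way. Gene order was taken from RefSeq (GRCh38.p14), 12372 of the compared genes had a place in it, and no coordinates are given since the authors' build was hg19. There were 28 runs of at least 4 neighbouring compared genes called in 1 direction, 13 higher and 15 lower. Many were gene families in tandem. The longest were PCDHA1 to PCDHAC2, 15 lower in a row (median log2 fold -1.48), and PCDHGB4 to PCDHGC5, 12 higher with 1.12, both on chromosome 5. Protocadherins of 1 cluster share their last exons, so their reads are not independent. Others were CEACAM1 to LYPD3 with the pregnancy glycoproteins PSG1 to PSG9 (11 lower, -2.91), KRT80 to KRT82 (8 lower, -3.20), MT2A to MT1X (8 higher, 3.96), KLK5 to KLK10 (5 lower, -4.14) and ADH5 to ADH1C (4 higher, 5.74). Other runs held genes of more than 1 kind, among them SCCPDH to ZNF496 on chromosome 1 (7 higher, 2.01), with 5 zinc finger genes at its end, and BMT2 to CAV1 on chromosome 7 (5 lower, -1.77), which closes with the caveolin pair CAV2 and CAV1.

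Chromosome 1 stood out by its far end. Compared genes were cut into 249 blocks of about 50 neighbours. The median log2 fold of a block was at least 0.3 above both controls in 17 blocks and at least 0.3 below both in 13. Between the controls, GFP lay at least 0.3 from vector, in either direction, in 16 blocks, and by at most 0.38. Of the 17 blocks above both controls, 10 lay on chromosome 1, all in its last 11 blocks, from RBM8A to PGBD2. The bounds of this stretch, and of the last 4 blocks below, were set with the block medians known, so the shares describe the stretch and are not a test. In these 11 blocks 152 of 539 genes were higher (28.2%) and 37 lower (6.86%). In the first 15 blocks, which start at SAMD11, 74 of 744 were higher (9.95%) and 81 lower (10.9%). The last 4 blocks, ZBED6 to PGBD2, had medians of 0.97 to 1.25 against vector and 0.79 to 0.97 against GFP, with 83 of 196 genes higher (42.3%). In the same 4 blocks the GFP library lay 0.15 to 0.24 above vector. Leaving out the 11 blocks, 1039 of 11833 placed genes were higher (8.78%). On chromosome 7 the blocks from CDK6 to CREB3L2 had medians of -0.40 to -0.65 against vector and -0.38 to -0.71 against GFP. The first 3 blocks of chromosome 8 and 5 blocks of chromosome 19 also lay at least 0.3 below both controls, and the block from PCDHB14 to SPINK6 on chromosome 5, which holds the protocadherin run, lay 1.01 and 0.85 above. CHI3L1, GLUL, HDGF, IKBKE, IFI16 and S100A8, all higher, lie in the chromosome 1 stretch, and so does IVL, which was lower. DNA was not measured here, and the part of gene dosage in these shifts was not tested.

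**Figure D5:**
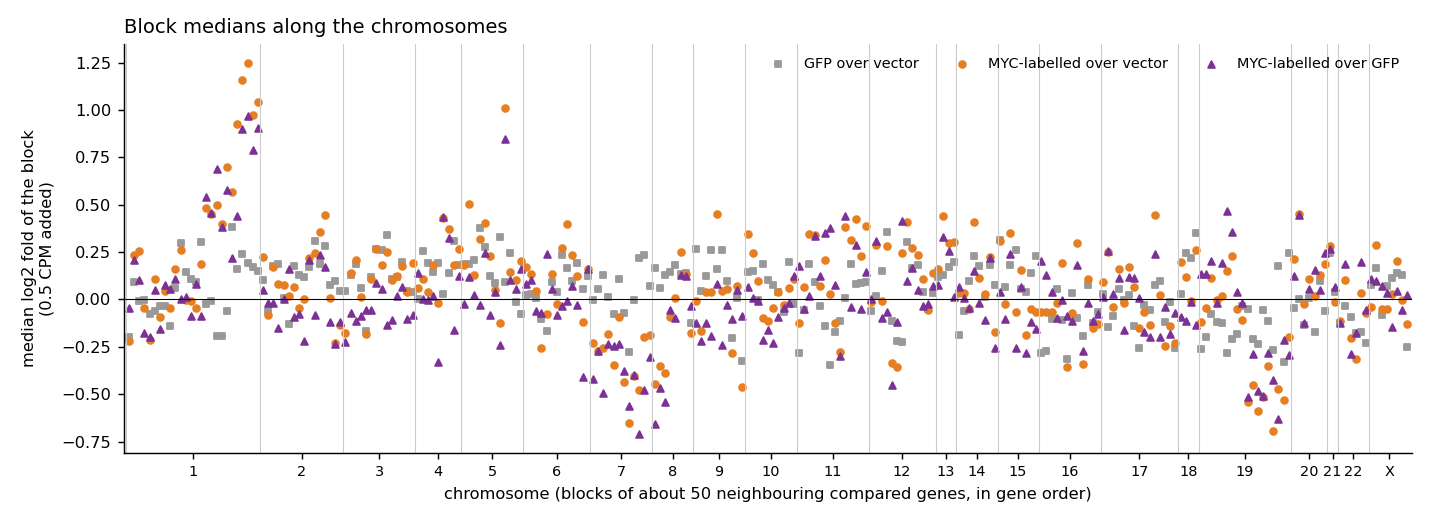
Median log2 fold of each of 249 blocks of about 50 neighbouring compared genes (y axis, 0.5 CPM added), in gene order along chromosomes 1 to 22 and X (x axis), for the library labelled MYC over vector (orange circles), over GFP (purple triangles) and for GFP over vector (grey squares). The end of chromosome 1 rises to 1.25 over vector and 0.97 over GFP, while GFP over vector stays within 0.38 of 0 throughout.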

How the data were processed

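Poly(A) RNA of 4 MCF10A lines was sequenced, 1 library per construct, so 1 library stands for each group and the groups share no replicate numbers. Per the submitters' processing notes, TopHat2, edgeR and hg19 were used. For the read counter, annotation and use of strand, the sources used here give no name. The deposited values are a signal per gene, edgeR pseudo-counts that the authors scaled to a common library size. They are not counts, so the planned count analysis was made possible by inverting edgeR's quantile mapping, which gave whole reads for 100% of values in all 4 libraries (largest relative residual 6.27e-10, tolerance 1e-05, dispersion 0.0552829, with vector and GFP adjusted as 1 group). On simulated data the step recovered 100% of reads for 18840 genes. Of 18859 lines, 19 exact duplicates were dropped.

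CPM used TMM factors over the 4 libraries (edgeR 4.0.16, R 4.3.3), with a filter at a mean of 1 CPM over the 4 libraries. That mean includes the library labelled MYC, so genes near 0 in both controls could be compared through a high level there. Shares higher in lists with many such genes are raised by this. No test was made: a gene was called where both CPM ratios reached 2-fold. Exact conditional binomial (Clopper-Pearson) 95% intervals of each ratio cover counting error only. A library with 0 reads was set to a floor of 3 reads, which gives a lower bound. Mean log2 folds and list medians add 0.5 CPM. Antisense, overlapping and near-identical genes may share reads. CPM is not corrected for gene length, so levels are compared between libraries and not between genes. The median log2 fold of all genes was 0.036 under TMM and 0.14 with library totals alone, a shift of 0.11, and folds are read relative to it. Fewer transcripts per cell and a different mix of cells cannot be told apart in bulk RNA.

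The comparison and the 58 gene lists were chosen with earlier results of these data known. Named genes are the MYC network, the CDKN2A neighbourhood and the basal markers, the 15 largest rises and 15 largest falls in CPM, up to 3 genes called in each direction and the member with the most reads for each role of each list, relatives that went opposite ways, members of the longest runs, and at most 2 promoters per motif. The figures also draw genes outside this rule, chosen after their values were seen. Block medians, the bounds of the chromosome 1 stretches, and the rule with 0.5 CPM added to both sides, were chosen after seeing the data. edgeR's quasi-likelihood test and DESeq2 1.42.0, with both controls as 1 group and 1 residual degree of freedom, were run as alternatives, and their adjusted p-values (threshold 0.05) compare libraries, not constructs. Values of some genes are not reported here.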

Additional observations from a re-analysis of the deposited data

Results flagged for a closer look

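MYC mRNA in the library labelled miR-105, which entered no comparison here, stood at 463 CPM, against 207 in vector, 198 in GFP and 232 under the MYC label. This value is given because the level lay above that of the controls in a library outside the comparisons. The MYC transcript thus had its highest level of the 4 libraries in 1 that does not bear the MYC label. Why this is so was not tested.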

How the results depend on the processing

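With 1 library per construct the spread between cultures is unknown, and depth (9138429 to 14025115 reads) limits genes near the 1 CPM filter. No paired analysis was possible because each construct has 1 library. The 1197 genes higher became 1853 without a filter, 2157 at 1.5-fold, 461 at 4-fold, 768 where the whole interval lay beyond 2-fold and 703 by DESeq2. The 1411 genes lower became 2322 without a filter, 2253 at 1.5-fold and 623 at 4-fold. Against 1 control alone, higher genes numbered 1638 to 1739 and lower genes 1695 to 1891. With library totals alone 1372 were higher and 1257 lower, since that scaling moves the folds upward. The shift differs between the controls and came to 0.11 at the median log2 fold. DESeq2 size factors gave 1215 and 1411, the deposited values 1283 and 1331, edgeR's test 1361 and 1427, and 0.5 CPM added to the rule 1127 and 1299. Of the calls at 2-fold, 2379 were shared with edgeR's (91.2% of the former, 85.3% of the latter). Genes apart between the controls (810) became 278 with 2 CPM added, 510 with 0.5 CPM added, 3994 without a filter, 431 at a mean of 5 CPM, 2819 at 1.5-fold and 139 at 4-fold. The balance of higher minus lower members changed in many of the 58 lists: it moved without a turn in sign in 25 without a filter, 21 against GFP alone, 18 at a mean of 5 CPM, 13 against vector alone, 11 with 2 CPM added and 3 with library totals. Turned in sign, the EGF family came to 1 with library totals and to 1 against vector alone, DNA methylation and Polycomb enzymes to 1 with library totals, the FGF system to -1 at a mean of 5 CPM and the Notch pathway to -2 against GFP alone. Of 468 named genes 380 were called, 40 of these lost the call under at least 1 alternative, and 0 reversed.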
